A study of Bos taurus with 8 samples.

Results

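The 6 genes are DPYSL2, GPR85, RAB38, ATP6V1G2, SCAI and GLT25D1. In the ratios computed here, their brightest probes were higher in granulosa cells of BHBH cows than of BHBL cows on each of 8 arrays. Another DPYSL2 probe, EMBV3_21724, was higher on 4 of 8 arrays, and in the deposited ratios GPR85 and SCAI were higher on 6 of 8. The genes were chosen by their measured ratios: the log2 ratio of BHBH over BHBL was above 0 on all 8 arrays and its average reached 1.5-fold. The array carried 8 probes for the 6 genes, out of 43794 probes in all, and all 8 probes passed the filter on low signal, as did 37909 of the 43794. Because this contrast chose the genes, their ratios of BHBH over BHBL are given as a description, with standard errors and without a test. The criteria were met by 8 of 14085 named genes (0.0568%), each taken at its brightest probe, and by 23 of 37909 probes (0.0607%). Besides the 6, these were VCAN and C5H12orf45. In the opposite direction 203 named genes (1.44%) were lower in BHBH on all 8 arrays and by 1.5-fold on average.

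BHBH denotes Holstein cows in severe negative energy balance with high blood beta-hydroxybutyrate, a ketone body that rises when body fat is mobilised. BHBL denotes Holstein cows in mild negative energy balance with low beta-hydroxybutyrate. Granulosa cells form the inner layer of the follicle wall, make estradiol and nurse the oocyte. In both groups they came by aspiration from dominant follicles of more than 9 mm at day 60 after calving, and every cow had been given 1 PG injection 42 h before. RNA of 12 cows per group was combined into 4 pools of 3 cows, so that a value belongs to a pool and not to a cow, and each BHBH pool was hybridised with a BHBL pool on 2 arrays with the dyes exchanged (4 pool pairs, 8 arrays).

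The 6 genes do not belong to a common pathway. DPYSL2 and GPR85 are best known from the nervous system. RAB38 and ATP6V1G2 act at membranes of acidic organelles, the first in delivering cargo to them and the second in the pump that acidifies them. SCAI is a nuclear brake on a transcription factor that answers to actin, and GLT25D1 puts sugars on collagen in the endoplasmic reticulum. In what follows a level is the log2 normalised intensity of a probe in a pool, averaged over its 2 arrays, so that a difference of 1 means 2-fold, and a ratio is the log2 of BHBH over BHBL. Levels are compared between pools for the same probe, and brightness was set against that of other probes only to pick 1 probe per gene. Both pools of a pair were read from the same spots, so that a brighter array can raise both.

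Of 10 granulosa markers, all were above background on all 8 arrays in both groups, including FSHR, CYP19A1 and FOXL2. Median ratios per array lay between -0.019 and 0.013. The deposited log2 ratios correlated across probes with the ratios used here at r = 0.941 to 0.960 per array. Over all 37909 probes limma with Benjamini-Hochberg adjustment called 0 as different between BHBH and BHBL at adjusted p under 0.05 (1944 at unadjusted p under 0.05, 5.13%), and with the pool pair as a replicate block on the 8 arrays it called 132, 6 higher and 126 lower.

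**Figure D1:**
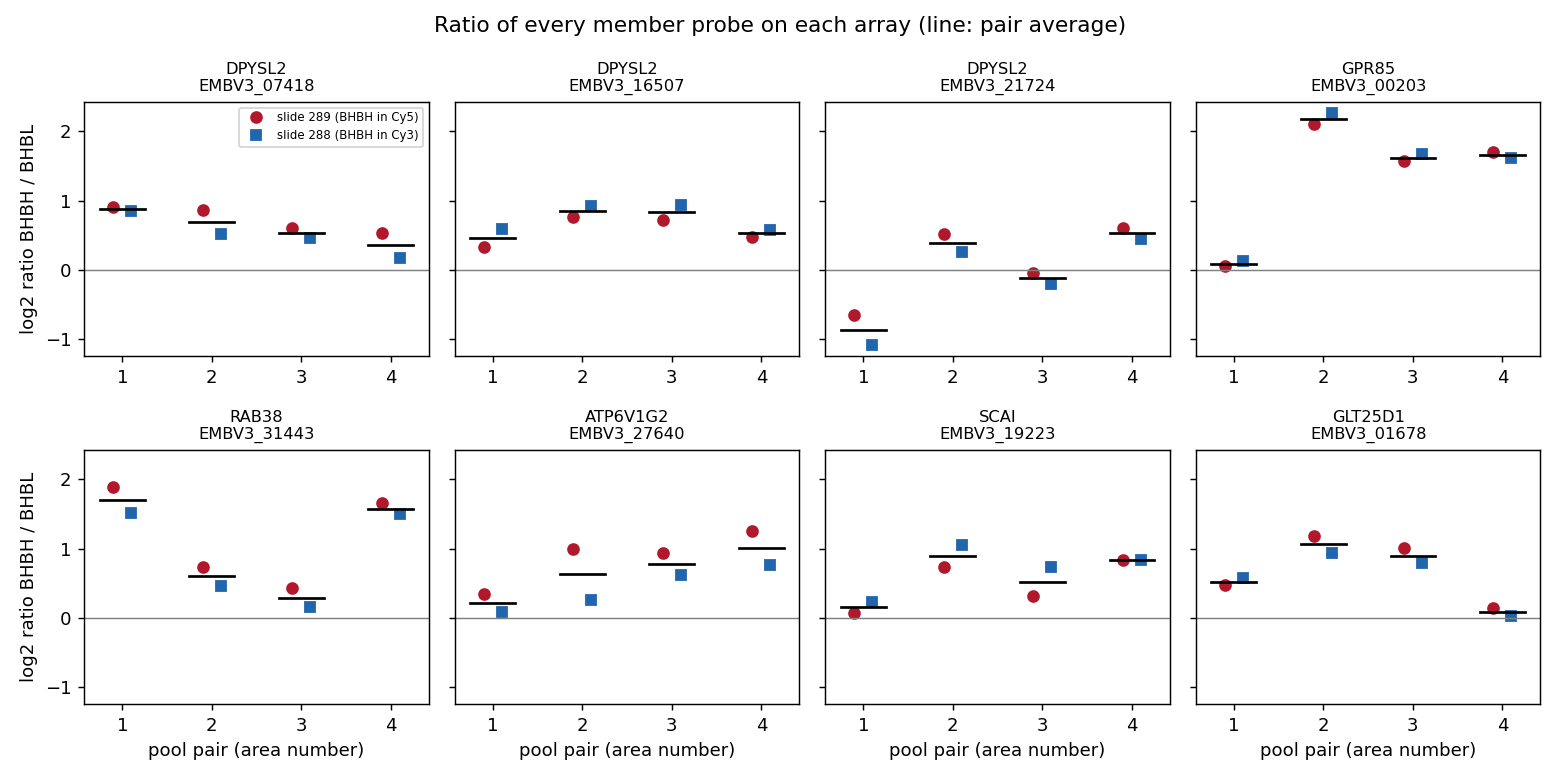
Log2 ratio of BHBH over BHBL (y axis) on each array for the 8 probes of the 6 genes, by pool pair (x axis); circles are slide 289, squares slide 288 with exchanged dyes, and lines the pair averages. The panels of the 6 genes' brightest probes lie above 0 by selection, EMBV3_07418 of DPYSL2 also lies above 0, and EMBV3_21724 is below 0 on 4 of 8 arrays.

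DPYSL2 encodes a cytosolic phosphoprotein, also called CRMP-2, that binds tubulin and carries the signal of semaphorins to the cytoskeleton of growing axons. Its brightest probe, EMBV3_16507, had levels of 11.59, 10.77, 10.93 and 10.94 in BHBH pools 1 to 4, against 11.13, 9.93, 10.11 and 10.41 in BHBL pools 1 to 4. Pool 1 was the highest of both groups, and the BHBL pool of pair 1 was above the 3 other BHBH pools, so the groups overlapped although the BHBH pool was the higher in each pair. The ratios of pairs 1 to 4 were 0.46, 0.84, 0.83 and 0.53, on average 0.67 ± 0.10 (SE, n = 4 pool pairs), or 1.59-fold.

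The array held a pair of further probes for DPYSL2, and they did not give the same answer. EMBV3_07418 was higher in BHBH on 8 of 8 arrays too, with pair ratios of 0.88, 0.69, 0.53 and 0.35 and an average of 0.61 ± 0.11 (SE, n = 4). Its levels of 10.26, 9.63, 9.84 and 10.01 in BHBH pools met 9.38, 8.94, 9.31 and 9.66 in BHBL pools, where BHBL pool 4 lay just above BHBH pool 2. The third probe, EMBV3_21724, was higher in BHBH on 4 of 8 arrays, with pair ratios of -0.87, 0.39, -0.12 and 0.53 and an average of -0.02 ± 0.26 (SE, n = 4). Its levels were 9.61, 10.03, 9.62 and 10.02 in BHBH pools, against 10.48, 9.64, 9.75 and 9.49 in BHBL pools. All 3 probes were above background on all 8 arrays in both groups. Thus 2 of 3 probes had DPYSL2 higher in BHBH and the remaining probe did not. Which transcripts each probe binds was not analysed here.

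GPR85 encodes an orphan receptor of the rhodopsin family, conserved among vertebrates and expressed mainly in brain in mouse and human. It had the largest average ratio of the 6 genes, 1.39 ± 0.36 (SE, n = 4), or 2.62-fold. Its probe EMBV3_00203 had levels of 11.90, 12.00, 11.40 and 12.55 in BHBH pools, against 11.81, 9.81, 9.78 and 10.89 in BHBL pools. The BHBL pool of pair 1 was at the level of the BHBH pools, and the other 3 BHBL pools were below every BHBH pool. The ratio in pair 1 was accordingly 0.09, with 0.05 and 0.12 on its 2 arrays, whereas pairs 2, 3 and 4 were at 2.19, 1.62 and 1.66. In the authors' deposited log2 ratios both arrays of pair 1 were just below 0, at -0.16 and -0.02, so that GPR85 was higher on 6 of 8 arrays there, with an average of 1.35. Without pair 1 the average was 1.82.

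RAB38 encodes a small GTPase that, with RAB32, steers enzymes to melanosomes and other organelles related to lysosomes. Its probe EMBV3_31443 had levels of 10.10, 9.95, 10.89 and 10.61 in BHBH pools, against 8.41, 9.36, 10.60 and 9.03 in BHBL pools. BHBH pools spanned 1.91-fold and BHBL pools 4.57-fold. The BHBL pool of pair 3 was as bright as the BHBH pools and the BHBL pool of pair 1 was the dimmest of all, so the groups overlapped. Ratios were large in pairs 1 and 4, at 1.70 and 1.58, and smaller in pairs 2 and 3, at 0.60 and 0.29. The average was 1.04 ± 0.28 (SE, n = 4), or 2.06-fold.

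ATP6V1G2 encodes an isoform of the G subunit in the stalk of the vacuolar proton pump, known in mammals from brain. Its probe EMBV3_27640 had levels of 9.06, 8.95, 9.44 and 9.52 in BHBH pools, against 8.85, 8.32, 8.66 and 8.52 in BHBL pools. Every BHBH pool lay above every BHBL pool, by 0.10 at the closest. Such a separation was seen for 2 of the 6 genes at the probes used, ATP6V1G2 and SCAI, and for 519 of all 37909 probes (1.37%), and nothing is read from it since the genes were chosen for higher BHBH values. Pair ratios were 0.21, 0.63, 0.78 and 1.0, and the average was 0.66 ± 0.15 (SE, n = 4), or 1.58-fold. Its ratio was larger on slide 289, with an average of 0.88, than on slide 288, with 0.43.

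SCAI encodes a protein that, in human cells, binds the coactivator MRTF-A and lowers the transcription of SRF targets. Its probe EMBV3_19223 had foreground intensities of 186 to 456 in BHBH channels and 128 to 278 in BHBL channels, and it exceeded the negative controls on 8 arrays in the BHBH channel and on 7 in the BHBL channel. The levels were 7.58, 7.79, 7.99 and 7.97 in BHBH pools, against 7.44, 6.89, 7.47 and 7.14 in BHBL pools. The groups did not overlap, with a gap of 0.11. Pair ratios were 0.15, 0.90, 0.52 and 0.83, and the average was 0.60 ± 0.15 (SE, n = 4), or 1.52-fold.

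The SCAI ratio depended on how a spot's pixels were summarised. The values above rest on median pixel intensities. With mean foreground and median background intensities SCAI was higher on 6 of 8 arrays, and with mean foreground and mean background on 4 of 8 arrays, where pair ratios were -0.25, 0.10, -0.17 and 0.77 and the average was 0.11. This change of 0.49 in the average was equalled or exceeded by 48 of 37909 probes (0.127%), while the other 5 genes changed by 0.01 to 0.18. The local background of this spot in the Cy3 channel was 27 to 40 on the 8 arrays as a median and 34.6 to 183 as a mean. In the authors' deposited log2 ratios SCAI was higher on 6 of 8 arrays, with -0.12 and -0.05 on the arrays of pair 1 and an average of 0.41. The statement that SCAI and GPR85 were higher on every array therefore holds for the ratios computed here from median pixels with loess. It does not hold for the deposited ratios, nor, for GPR85, with median normalisation, where it was higher on 6 arrays.

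GLT25D1, listed as COLGALT1 in the RefSeq gene table, encodes a galactosyltransferase that modifies hydroxylysine in collagen chains before they leave the endoplasmic reticulum. Its probe EMBV3_01678 had levels of 11.13, 11.19, 11.003 and 11.21 in BHBH pools, which differed by at most 1.15-fold, against 10.62, 10.13, 10.11 and 11.12 in BHBL pools, which spanned 2.02-fold. The BHBL pool of pair 4 lay within the range of the BHBH pools and the other 3 lay below it. Ratios were 0.52, 1.06, 0.90 and 0.09 in pairs 1 to 4. The average was 0.64 ± 0.18 (SE, n = 4), or 1.56-fold.

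**Figure D2:**
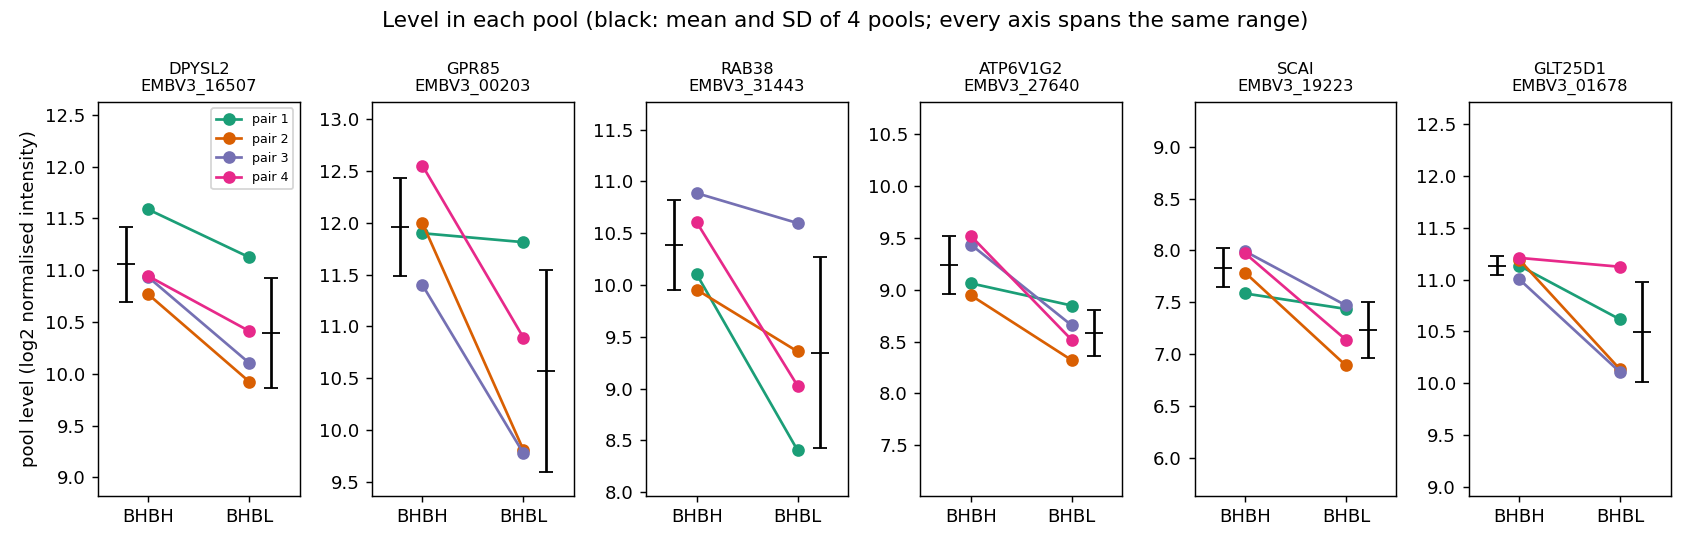
Level in each pool (y axis, log2 normalised intensity) for the 6 genes at their brightest probe, BHBH at the left and BHBL at the right, with lines joining the pools of a pair and black bars for mean ± SD of 4 pools. BHBL pools spread more than BHBH pools for 5 of the 6 genes, and only ATP6V1G2 and SCAI show no overlap between the groups. Both are descriptions and were not tested.

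For 5 of the 6 genes the pools differed more among themselves in BHBL than in BHBH. The SD over 4 pools was 0.47 in BHBH and 0.98 in BHBL for GPR85. It was 0.43 in BHBH and 0.92 in BHBL for RAB38, and 0.09 in BHBH and 0.48 in BHBL for GLT25D1. DPYSL2 (EMBV3_16507) had 0.36 in BHBH and 0.53 in BHBL, SCAI 0.19 in BHBH and 0.27 in BHBL, and ATP6V1G2, the exception, 0.28 in BHBH and 0.22 in BHBL. Over all 37909 probes the median SD was 0.200 in BHBH and 0.199 in BHBL. The share of all probes with the larger SD in BHBL is not given, so the count of 5 of 6 is a description only. The difference in spread between the groups was not tested.

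Differences between pools within a group are not the contrast that chose the genes, although the levels come from the same channels. They were tested against the error between the 2 arrays of a pool with limma's moderated F test, adjusted over all probes by the Benjamini-Hochberg method. Within BHBL all 6 genes differed between pools, with adjusted p from 1.75e-07 for GPR85 to 0.012 for ATP6V1G2. Within BHBH 5 of 6 did, with adjusted p from 7.44e-05 for GPR85 to 0.048 for SCAI, and GLT25D1 missed the threshold at adjusted p = 0.33. Differences between pools were common on these arrays, called for 52.9% of all probes within BHBL and for 52% within BHBH, so the counts of members are not set apart from the rest of the array by these tests. The error here is that between 2 arrays of the same RNA, so a call says that pools differed beyond array error and nothing of BHBH against BHBL. Without pool 1 the adjusted p of DPYSL2 (EMBV3_16507) within BHBH was 0.40 and that of SCAI 0.31, and that of ATP6V1G2 within BHBL was 0.062. Without pool 2 the adjusted p within BHBL was 0.080 for ATP6V1G2 and 0.052 for SCAI. Without pool 3 that of SCAI within BHBH was 0.073, and with no filter on low signal it was 0.056. Pools differ in their cows, and how much of these differences lies between cows cannot be told from pooled RNA.

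The size of the ratio varied between pool pairs. These are the ratios that chose the genes, so their spread is described without a test for the 6 genes. The largest and the smallest pair ratio lay 4.29-fold apart for GPR85, 2.66-fold for RAB38 and 1.30-fold for DPYSL2 (EMBV3_16507). The SD between pairs was 0.91 for GPR85, 0.70 for RAB38, 0.43 for GLT25D1, 0.34 for SCAI, 0.33 for ATP6V1G2 and 0.20 for DPYSL2 (EMBV3_16507), beside a median of 0.239 over all probes. In 4 of the 6 genes, at their brightest probes, pair 1 had the smallest ratio. In RAB38 pair 1 had the largest, as it had for EMBV3_07418 of DPYSL2. The share of all probes with their smallest ratio in pair 1 is not given, so nothing is read from this count. Over all 37909 probes 47.4% differed between pairs by limma's F test with Benjamini-Hochberg adjustment.

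Dye orientation and slide coincide, and their joint effect cancels in the average of a pair. The ratios of the 6 genes by slide are likewise given without a test. ATP6V1G2 averaged 0.88 on slide 289 and 0.43 on slide 288, and RAB38 averaged 1.18 on slide 289 and 0.91 on slide 288. GPR85 averaged 1.36 on slide 289 and 1.42 on slide 288. Over all probes 34.9% were called for this joint effect, and the demand for a common sign on both slides bounds it in the genes chosen.

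The 1.5-fold threshold corresponds to a log2 ratio of 0.58. Just inside it were SCAI at 0.60 and C5H12orf45 at 0.62, with pair ratios of 1.03, 0.20, 1.09 and 0.14 for the second. Just outside it, among genes higher in BHBH on all 8 arrays, were CIT, a kinase of cell division, at 0.57 and PDPN, the membrane glycoprotein podoplanin, at 0.55. PDPN exceeded the negative controls on 8 arrays in the BHBH channel and on 2 in the BHBL channel. SCAI was below the threshold with no background correction (0.49), background subtraction (0.56), mean foreground (0.47) and the deposited ratios (0.41). It stayed above it with a normexp offset of 16 (0.75) and with median normalisation (0.61). With mean foreground and mean background SCAI, at 0.11, and ATP6V1G2, at 0.47, were below it. In all, 114 of 14085 named genes (0.809%) were higher in BHBH on all 8 arrays and 374 (2.66%) were lower on all 8. VCAN, the matrix proteoglycan versican, met the criteria at 0.92 ± 0.21 (SE, n = 4), and its ratios in the 4 pairs were 0.22, 1.04, 1.40 and 1.01. Pair 1 was the lowest, as it was for DPYSL2 (EMBV3_16507), GPR85, ATP6V1G2 and SCAI, but not for RAB38, GLT25D1 or EMBV3_07418 of DPYSL2.

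Partner genes of the 6 had average ratios of either sign. The 6 lists, 1 per gene, held 169 genes, of which 155 were measured, 66 with an average ratio above 0 and 89 below. None of the 155 was higher in BHBH on all 8 arrays, against 0.809% of all named genes, and 6 were lower on all 8, against 2.66%. With limma 0 of the 155 passed adjusted p under 0.05. At unadjusted p under 0.05 there were 8, all lower. With the replicate block 1 passed, and with the 8 arrays as separate ratios 2. List medians lay between -0.07 and 0.05, beside a median of -0.005 over all probes.

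**Figure D3:**
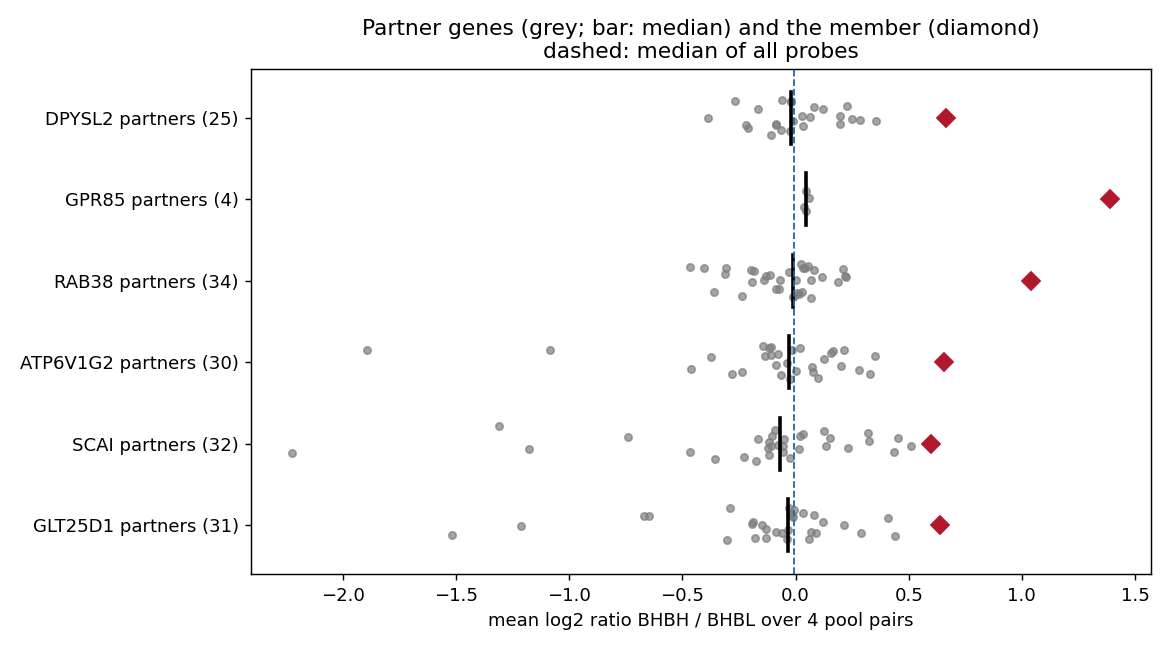
Mean log2 ratio of BHBH over BHBL (x axis) for the measured genes of each partner list (grey points, bar at the median, number of genes in brackets) and for the member itself (diamond); the dashed line is the median of all probes. The diamonds lie to the right by selection, and the list medians lie between -0.07 and 0.05.

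The family of DPYSL2 and semaphorin signalling had a median of -0.02 over 25 measured genes. DPYSL3, a close relative that also binds tubulin, was at -0.27 ± 0.16 and was higher on 1 of 8 arrays. CRMP1 was at 0.06 ± 0.30, with pair ratios of 0.77, -0.76, 0.60 and -0.36. DPYSL4 was at -0.07 ± 0.11 and DPYSL5 at -0.02 ± 0.13. The relatives of DPYSL2 thus had ratios of either sign, all within 2 SE of 0.

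GPR173, a receptor of the same small family as GPR85, was at 0.05 ± 0.20, with pair ratios of -0.17, 0.58, 0.28 and -0.49. All 4 measured genes of the GPR85 list had average ratios above 0, between 0.04 and 0.06, each smaller than its SE. RAB32, the closest relative of RAB38, was at 0.02 ± 0.21. Its ratio was 0.32, 0.26 and 0.24 in the first 3 pairs and -0.72 in pair 4, where RAB38 was at 1.58. The subunits HPS1 and HPS4 of the exchange factor that activates both GTPases were at 0.01 ± 0.12 and -0.18 ± 0.15, and their effector gene ANKRD27 was at -0.07 ± 0.13. The highest average ratio among the 34 measured genes of this traffic list was 0.22.

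Among the 30 measured genes of the proton pump and lysosome, the ubiquitous G subunit gene ATP6V1G1 was at -0.12 ± 0.11 and was higher on 3 of 8 arrays, and ATP6V1G3, an isoform known from kidney, was at -0.09 ± 0.09 and exceeded the negative controls on 2 arrays in the BHBH channel and on 4 in the BHBL channel. ATP6V1E1, which pairs with G subunits in the stalk, was at -0.15 ± 0.24, and the catalytic subunit gene ATP6V1A at -0.08 ± 0.17. The largest ratios of this list, chosen after their values were seen, went the other way: ATP6V0A4 was at -1.89 ± 0.33 and ATP6V1B1 at -1.08 ± 0.26, each lower on all 8 arrays. Both are known as subunits of the pump in acid-secreting epithelial cells. With the replicate block ATP6V0A4 was the 1 partner gene that passed.

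Of the SCAI list, MKL1, which encodes MRTF-A, was not measured here. MKL2, its relative, was at -0.17 ± 0.08 and higher on 1 of 8 arrays, and SRF was at -0.05 ± 0.10. The median of the 32 measured genes, mostly SRF targets of the actin cytoskeleton, was -0.07, with pair medians of 0.37, -0.19, 0.10 and -0.50. MYL9, a myosin light chain of contractile cells chosen after its value was seen, was at -0.74 ± 0.19 and lower on all 8 arrays.

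For GLT25D1 the collagen list had a median of -0.03 over 31 measured genes. GLT25D2, the second galactosyltransferase of this kind, was at -0.03 ± 0.09, and PLOD3, the hydroxylase that prepares the lysine for it, at -0.09 ± 0.16. COL4A1, a basement membrane collagen, was at -0.18 ± 0.20, with pair ratios of -0.65, 0.42, -0.03 and -0.47. The fibrillar collagen gene COL1A2, chosen after its value was seen, ran from 3.76 in pair 1 to -5.03 in pair 4.

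**Figure D4:**
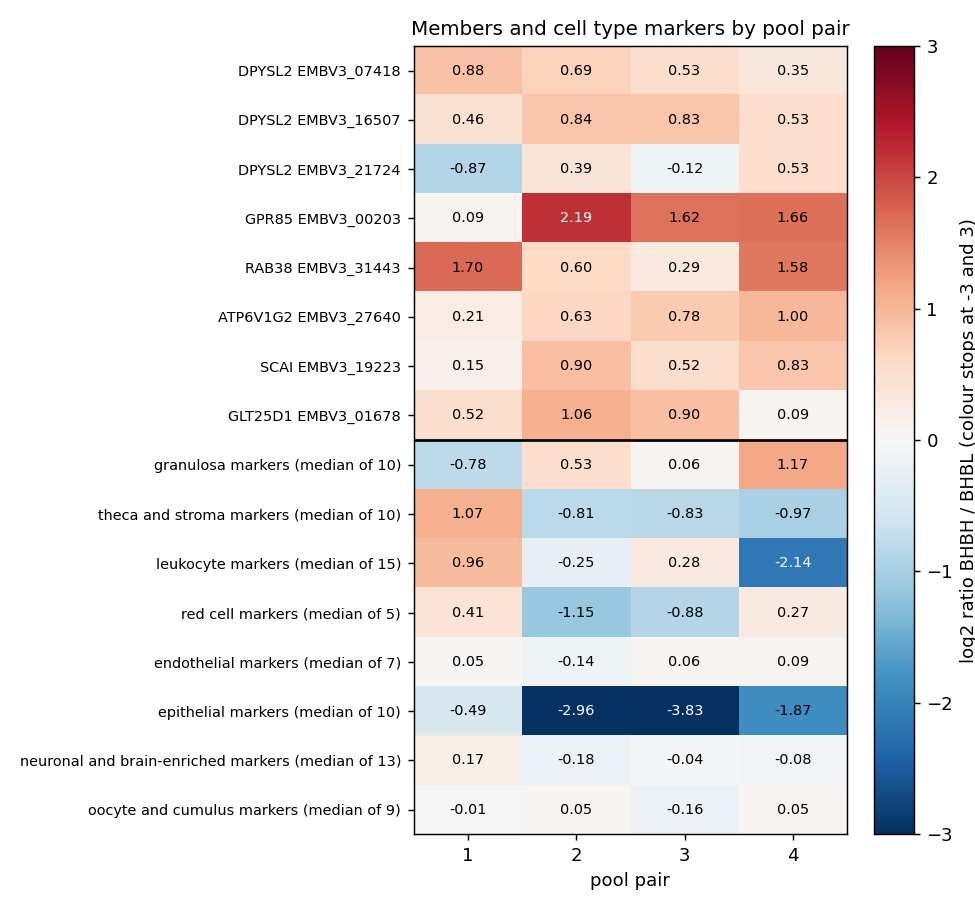
Log2 ratio of BHBH over BHBL (colour and printed value) in each pool pair (columns) for the 8 member probes (upper rows) and as the median of each cell type marker list (lower rows). The median of the epithelial markers is below 0 in all 4 pairs, and granulosa, stroma, leukocyte and red cell medians change sign between pairs.

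Markers of other cell types varied between the pool pairs, and fewer cells of a type and less RNA per cell cannot be told apart in these pools. The granulosa list had pair medians of -0.78, 0.53, 0.06 and 1.17, with 8 of 10 genes higher on average, and mean levels over the list of 12.0 to 12.7 in BHBH pools and 11.7 to 12.8 in BHBL pools. The third DPYSL2 probe had the same signs as this list in 3 of 4 pairs. Every other member probe, above 0 in all 4 pairs, did so too, so this does not set it apart. Theca and stroma markers had medians of 1.07, -0.81, -0.83 and -0.97, with 9 of 10 lower on average. Their mean levels were 9.17 to 11.1 in BHBH and 9.69 to 11.5 in BHBL pools. Single markers departed from the median: in pair 1 LUM was at -1.02, CYP17A1 at -0.24, INSL3 at 0.01 and NR2F2 at 0.02. INSL3 was above 0 in all 4 pairs, and in pair 3 ACTA2 was at 0.41 and COL1A1 at 0.26. Pair 1, whose median stood apart, is the pair in which DPYSL2 (EMBV3_16507), GPR85, ATP6V1G2 and SCAI had their smallest ratios. In the same pair RAB38, at 1.70, and EMBV3_07418 of DPYSL2, at 0.88, had their largest. GLT25D1 had its smallest in pair 4. Leukocyte markers had medians of 0.96, -0.25, 0.28 and -2.14, with 9 of 15 lower on average. Their mean levels were 9.35 to 10.9 in BHBH and 9.90 to 11.5 in BHBL pools. These medians join markers that went opposite ways. CD163 was at 2.31 in pair 2 and 1.67 in pair 3, and S100A8 at -3.59 in pair 2 and -4.70 in pair 3. CD14, CD163, CD68 and CSF1R were each higher on 6 of 8 arrays, and S100A8 and S100A9 lower on all 8. The part of these markers in the ratios of the 6 genes was not tested.

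The median of the epithelial markers was below 0 in each pair, at -0.49, -2.96, -3.83 and -1.87, with 10 of 10 genes lower on average and 5 of 10 lower on all 8 arrays. Single markers departed from the median: in pair 1 KRT8 was at 3.98, KRT18 at 3.74, KRT19 at 0.20 and CDH1 at 0.15, and in pair 4 GRHL2 was at 0.04. Mean levels over this list were 8.68 to 10.1 in BHBH pools and 10.2 to 12.2 in BHBL pools, and CDH1 exceeded the negative controls on 3 arrays in the BHBH channel and on 7 in the BHBL channel. This is the marker list whose median kept the same sign in all 4 pairs. The 6 genes have the opposite sign by selection, so nothing is read from that contrast. The part of this list in the ratios of the 6 genes was not tested. Red cell markers (5 measured) had pair medians of 0.41, -1.15, -0.88 and 0.27, with 4 of 5 lower on average. Their mean levels were 7.79 to 9.34 in BHBH and 7.88 to 9.70 in BHBL pools. Single markers went against the median: in pair 4 HBA was at -0.05 and SLC4A1 at -0.14, and in pair 3 AHSP was at 0.30 and SLC4A1 at 0.03. Pairs 1 and 4, with medians above 0, are those in which RAB38 had its large ratios. A link between these was not tested, and nothing is read from this match. Neuronal and brain-enriched markers, relevant since DPYSL2, GPR85 and ATP6V1G2 are known from brain, had pair medians of 0.17, -0.18, -0.04 and -0.08 over 13 measured genes, 5 of them higher on average, with mean levels of 8.05 to 8.92 in BHBH pools and 8.24 to 9.19 in BHBL pools. Endothelial markers had a median of -0.03 over 7 genes and oocyte and cumulus markers -0.01 over 9. With limma 0 of the 79 measured markers passed adjusted p under 0.05, 9 had unadjusted p under 0.05, all of them lower, and 4 passed with the replicate block, EPCAM, KRT7, CLDN4 and MUC1.

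The genes whose levels over the 8 pools were most like those of each member were found by Pearson's r among 14079 other named genes. The 8 pools share arrays in pairs, and with so few points high values are common, so r is a description only. Levels of both groups enter r, so a gene found this way tends to share the member's ratios by construction. PSMD2, a subunit of the proteasome, was the most like GPR85 (r = 0.971), with levels of 15.1 to 15.2 in BHBH pools and 14.6 to 15.1 in BHBL pools and a ratio of 0.02 in pair 1, against 0.60, 0.46 and 0.26 in pairs 2 to 4. SRY (r = 0.946) and DUOX2 (r = 0.946) followed, with probes above background on 6 and 5 arrays in BHBH and on 5 and 1 in BHBL. The SRY probe had levels of only 7.21 to 7.38 in BHBH pools and 7.08 to 7.26 in BHBL pools. Both probes were near background, and their place here is not read as expression of either gene. In all, 13 genes reached r of 0.9 for GPR85.

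RAB38 was followed by C2H1orf201 (r = 0.986), CA9 (r = 0.970) and LOC617219 (r = 0.961). CA9, a carbonic anhydrase of the cell surface induced by low oxygen, was higher in BHBH on 8 of 8 arrays at 0.39 ± 0.12. Its pair ratios of 0.62, 0.21, 0.13 and 0.60 rank the pairs as RAB38 does. CA9 was picked by its likeness to RAB38, so nothing is read from this. ATP6V1G2 was followed by LOC788363 (r = 0.971), CDR2 (r = 0.949) and CHST10 (r = 0.940), a sulfotransferase gene with pair ratios of 0.05, 0.47, 0.30 and 0.96. SCAI was followed by SNX17 (r = 0.977), a sorting nexin, TTLL7 (r = 0.956) and GHRH (r = 0.939). DPYSL2 was followed by RC3H2 (r = 0.981), LIPF (r = 0.977) and LOC782807 (r = 0.976), and 39 genes reached r of 0.9. GLT25D1 was followed by PLEKHA2 (r = 0.962), LOC784679 (r = 0.955) and PADI2 (r = 0.944). Several of these probes exceeded the negative controls on few arrays: LIPF on 4 in the BHBH and 1 in the BHBL channel, LOC782807 and PADI2 on 6 in the BHBH and 3 in the BHBL channel, and C2H1orf201 and LOC788363 on 5 in the BHBH and 2 in the BHBL channel. TTLL7 exceeded them on 7 in the BHBH and 5 in the BHBL channel, and LOC617219 and GHRH on 8 in the BHBH and 5 in the BHBL channel. The highest average ratio among these genes was 0.44, that of CHST10.

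**Figure D5:**
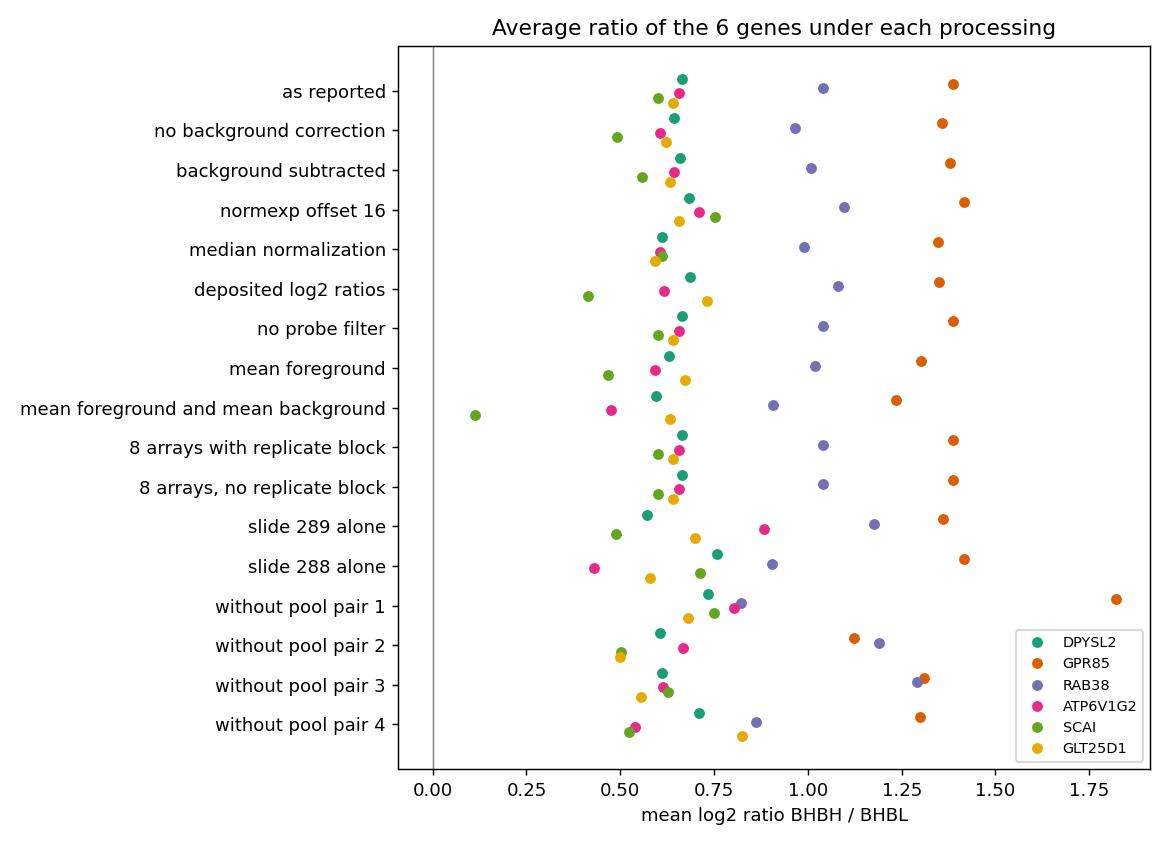
Average log2 ratio of BHBH over BHBL (x axis) for the 6 genes under each way of processing and with each pool pair left out (rows). Every point lies above 0; SCAI with mean foreground and mean background is the lowest at 0.11, and GPR85 without pair 1 the highest at 1.82.

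Across 16 other ways of processing or leaving out a pair, the average ratio of each of the 6 genes stayed above 0. DPYSL2 (EMBV3_16507) ranged from 0.57 to 0.76, and ATP6V1G2 from 0.43 on slide 288 to 0.88 on slide 289. GLT25D1 ranged from 0.50 without pair 2 to 0.83 without pair 4, and RAB38 from 0.82 without pair 1 to 1.29 without pair 3. GPR85 ranged from 1.12 without pair 2 to 1.82 without pair 1. The direction is fixed by the choice of the genes and is no sign of stability. The sign on every single array was less even. With median normalisation in place of loess GPR85 was higher on 6 arrays and RAB38, ATP6V1G2 and GLT25D1 on 7. With mean foreground GPR85 was higher on 7 arrays, and with mean foreground and mean background GPR85 and ATP6V1G2 were. Probes EMBV3_16507 and EMBV3_07418 of DPYSL2 stayed at 8 of 8 under all 7 alternatives of background, normalisation, pixels and deposited ratios. The third DPYSL2 probe, EMBV3_21724, stayed at 4 of 8 under the same alternatives.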

How the data were processed

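Granulosa cell RNA of 4 BHBH and 4 BHBL pools was measured on 8 two-colour arrays. Per the labels' protocols, RNA was amplified linearly and 825 ng per pool labelled, with BHBH in Cy5 on slide 289 and BHBL in Cy5 on slide 288. The deposited scanner intensity values are foreground and local background of the Cy3 and Cy5 channels, uncorrected, per the file headers. The deposited log2 ratios were made with limma, per the submitters' processing notes; the sources used here do not give the correction behind them. They ran as BHBH over BHBL on every array (medians -0.014 to 0.040), with centring near 0.

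Median intensities were read in R 4.3.3 (data.table, version 1.17.8, and jsonlite 2.0.0), corrected with normexp (offset 50) and loess-normalised in limma 3.58.1, with controls at weight 0. Arrays with the same area number were averaged to pool pairs. The labels do not name pools. With slide means removed, arrays with the same area number correlated at 0.838 to 0.888 across probes, and different areas on different slides at -0.52 to -0.03. Removing slide means pushes the values for different areas below 0, so nothing is read from their sign. A title reading area 1.2 was taken as area 1. Separate-channel levels used Aquantile. A probe was kept where 4 or more arrays had it, in Cy3 or Cy5, above the mean plus 2 SD of the 153 negative control spots, and Benjamini-Hochberg adjustment ran over all of them. Tests were checked on simulated data. The named genes are the members with every probe, both other genes that met the criteria, 2 genes on each side of the threshold, 3 nearest genes per member by r, and fixed partners of the lists (20 genes, of which GPR27 and MKL1 were not measured) plus any called list gene; exceptions are marked. Symbols are those of the platform annotation at GEO, where 21790 probes had 1 symbol and 22004 none. The members and lists were chosen with earlier results of these data known. Separate pools of separate cows are the replicates. The number of pool pairs (n = 4) limits precision. Alternatives covered background, normalisation, pixel summary, filter, deposited ratios, single slides, the replicate block and pairs left out.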

Additional observations from a re-analysis of the deposited data

Results flagged for a closer look

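In 4 of 76 groups of 4 values (pair ratios or pool levels of the named genes, and list medians) 1 value stood well apart from the remaining 3, and about 1 in 20 would do so by chance. The ratio of DPYSL5 was 0.41 in pair 1, against -0.18 to -0.14 in the other pairs. The ratio of RAB32 was -0.72 in pair 4, against 0.24 to 0.32. TTLL7, a gene near SCAI by its levels, was at -0.025 in pair 1, against 0.34 to 0.39. The median of the theca and stroma markers was 1.07 in pair 1, against -0.97 to -0.81. No probe of the 6 genes had a pair ratio or a pool level that stood apart in this way.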

How the results depend on the processing

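Of 16 alternatives, 15 moved the average ratio of SCAI by less than its SD between pairs. Mean foreground with mean background, chosen after seeing the data, put the average of SCAI at 0.11. The ratio of each of the other 5 genes moved by less than its own SD between pairs under all 16. Several of these outcomes were fixed in advance, so the counts of 15 and 16 are no sign of stability. Leaving out 1 pair cannot move an average by as much as its SD between pairs. Dropping the filter on low signal, and both fits to the 8 arrays, returned the same averages. Among the remaining settings the average of SCAI ran from 0.11 to 0.75. The count of probes called between BHBH and BHBL was 0, but 132 with the 8 arrays and the replicate block and 249 with the 8 arrays and no replicate block; it was 0 without any 1 pair. The joint dye and slide effect was called for 13212 probes, against 3176 without the replicate block and 8137 to 12060 without 1 pair. What sets these changes was not tested. SCAI is the member that did not exceed the negative controls on 1 array, in the BHBL channel.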
